A study of Homo sapiens with 6 samples.

Results

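Nascent RNA of 10 polypeptide N-acetylgalactosaminyltransferase genes, GALNT1 to GALNT7 and GALNT10 to GALNT12, was followed through GSTO1 knockdown and inhibition in HCT116 cells. They are 10 of the 22984 sense-strand gene rows of each library, taken by gene symbol. GALNT5 was chosen by its low values with siGSTO1 and with C1-27 at 24 h, and the other 9 were chosen as its family, with these results known. Values of the 10 genes with siGSTO1 and with C1-27 at 24 h are therefore a description, with no test.

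The enzymes encoded by these genes sit in the Golgi and start mucin-type O-glycosylation, in which N-acetylgalactosamine (GalNAc) is moved from UDP-GalNAc to serine or threonine of a protein. Some members act on bare peptides, and others prefer peptides that already carry a GalNAc. The core 1 synthase C1GALT1, which needs its chaperone C1GALT1C1, then adds galactose, and branching, sialic acid and fucose follow. Mucin-type glycans coat the colon epithelium, and their truncation is common in carcinomas.

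HCT116 is a human colorectal carcinoma line, and each library came from 1 culture labelled with 2 mM bromouridine (BrU) for 0.5 h, so that RNA made in that window was captured (Bru-seq). The control group was 0.01% DMSO for 4 h, with 2 cultures. The treated groups had 1 culture each: siRNA against GSTO1 (siGSTO1, 10 nM, 24 h), the GSTO1 inhibitor C1-27 (1 μM) for 4 h and for 24 h, and its inactive analogue C1-14 (10 μM) for 4 h. No non-targeting siRNA and no 24 h DMSO culture was among the libraries analysed here, so siRNA delivery and the longer time cannot be told apart from the treatment. All 4 comparisons share the same DMSO cultures.

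Sense counts per library were between 18112861 and 36841146, with DMSO culture 1 at the low end. RPKM is reads scaled to the counted length of a gene and to the mapped reads of the library. Its log2 SD between the DMSO cultures was 0.388 over 7825 genes. Of these genes, 1275 were 1.4-fold or more lower in culture 2 against 222 higher. The gene targeted by the siRNA, GSTO1, had an RPKM of 3.51 and 3.72 in DMSO and 2.70 with siGSTO1, 0.748-fold of the DMSO mean. An siRNA acts on mature RNA, so nascent RNA is an indirect check of the label. The epithelial genes EPCAM, KRT8, KRT18, CDH1 and CDX2 were transcribed in DMSO at a mean RPKM of 0.262 to 7.71, whereas VIL1 was near 0. PTPRC, COL3A1 and DES were near 0 in every library. COL1A1 was low, and PECAM1 had a mean RPKM of 0.284 in DMSO, slightly above CDX2 at 0.262.

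**Figure D1:**
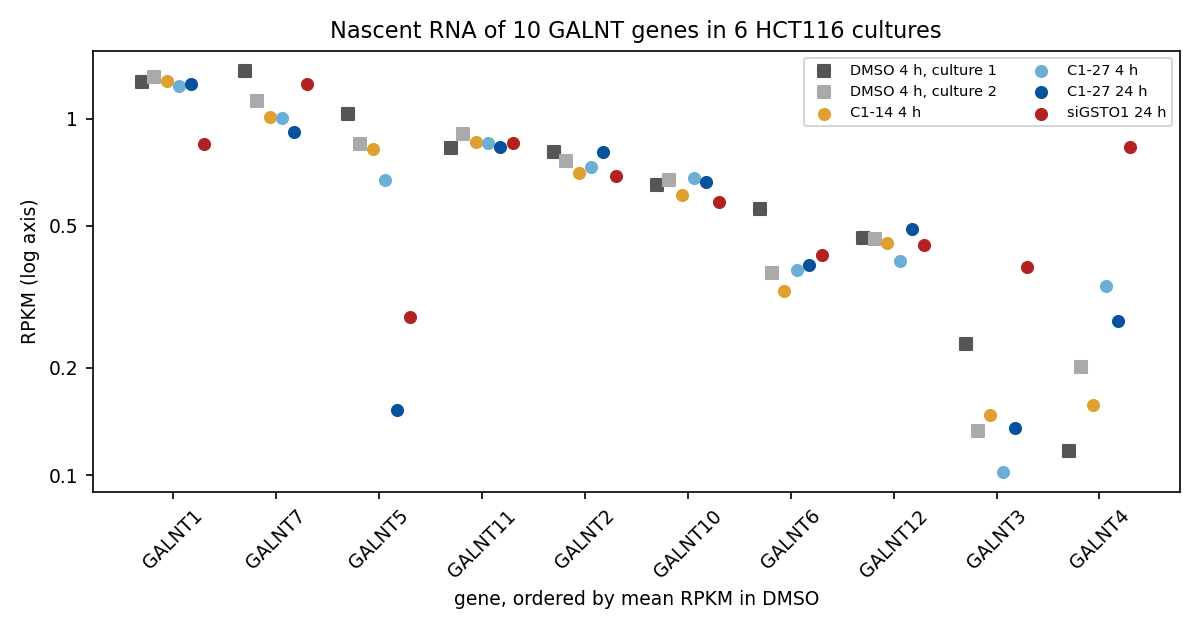
RPKM of the 10 genes in 6 HCT116 cultures, on a log axis, with genes ordered by their mean in DMSO. Squares are the 2 DMSO cultures and circles the treated cultures, 1 each. GALNT5 sits at 0.152 with C1-27 at 24 h and at 0.278 with siGSTO1, below its DMSO values of 1.03 and 0.847, while GALNT11 stays between 0.826 and 0.908.

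In DMSO, RPKM levels ranked GALNT1, GALNT7, GALNT5, GALNT11, GALNT2, GALNT10, GALNT6, GALNT12, GALNT3 and GALNT4 from high to low. The ranges of the DMSO cultures overlapped for the neighbours GALNT1 and GALNT7, GALNT5 and GALNT11, GALNT6 and GALNT12, and GALNT3 and GALNT4, and did not for the other 5 pairs of neighbours. GALNT3, GALNT4 and GALNT6 were 1.4-fold or more apart between control cultures, so 3 of the 10 members had a control spread as large as the threshold used below.

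RefSeq promoter sequence was matched for 7 of the 10 members, and GALNT4, GALNT5 and GALNT6 had no entry. The 250 bases before the start are shown for GALNT3, whose level was higher with siGSTO1, for GALNT7, the member nearest to the threshold after GALNT5 with C1-27 at 24 h, and for GALNT11, whose level moved least. They are from GRCh38.p14 at chr2:165794248-165794497 (minus strand), chr4:173168561-173168810 (plus strand) and chr7:152074787-152075036 (plus strand), written 5′ to 3′ on the strand of the gene. Capitals mark GGAATG, the core of the TEAD factor motif, searched on both strands.
GALNT3: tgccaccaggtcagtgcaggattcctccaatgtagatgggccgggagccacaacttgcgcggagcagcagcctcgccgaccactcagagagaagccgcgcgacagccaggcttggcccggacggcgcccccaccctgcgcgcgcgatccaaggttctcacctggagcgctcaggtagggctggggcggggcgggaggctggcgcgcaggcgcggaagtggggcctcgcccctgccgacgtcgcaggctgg
GALNT7: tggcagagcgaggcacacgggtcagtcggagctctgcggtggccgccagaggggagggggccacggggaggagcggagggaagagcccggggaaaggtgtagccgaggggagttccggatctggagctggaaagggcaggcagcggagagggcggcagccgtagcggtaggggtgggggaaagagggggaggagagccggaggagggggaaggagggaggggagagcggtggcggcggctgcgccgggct
GALNT11: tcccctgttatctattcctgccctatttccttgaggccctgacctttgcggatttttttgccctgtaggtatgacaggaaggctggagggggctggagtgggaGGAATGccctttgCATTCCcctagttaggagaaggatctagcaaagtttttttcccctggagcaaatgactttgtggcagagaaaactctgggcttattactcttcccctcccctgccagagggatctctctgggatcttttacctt
Over the 300-base windows around the starts (250 before and 50 after), the TEAD core was found in 1 of 9 member promoters, that of GALNT11, against 14.0% of all 35116 promoters. The NRF2 core TGACNNNGC was found in 1 of the 9, at 1 of the GALNT1 starts, against 13.3% of all promoters. The AP-1 motif TGANTCA and the E-box CACGTG were found in 0 of the 9, against 7.71% and 7.26% of all promoters. These starts are from another build than the counted intervals and were not matched to them, and a match describes letters only.

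GALNT5, one of the members that act on bare peptides, had the lowest ratio of the 10 genes with siGSTO1 and with C1-27 at 24 h, but not with C1-27 or C1-14 at 4 h. It encodes a family member with a long stem between its membrane anchor and its catalytic domain. It was counted over 53574 bp at chr2:158114340-158167913 (hg19, plus strand), exons and introns together. Its RPKM was 1.03 and 0.847 in the DMSO cultures, a mean of 0.937 ± 0.128 (SD, n = 2). With C1-14 it was 0.822, with C1-27 it was 0.672 at 4 h and 0.152 at 24 h, and with siGSTO1 it was 0.278. All 4 treated values were below both DMSO values, and the C1-14 value was close to that of DMSO culture 2. The counts behind them were 1288 and 1850 in DMSO, 1526 with C1-14, 1393 after 4 h and 375 after 24 h of C1-27, and 392 with siGSTO1.

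Compared with the DMSO mean, GALNT5 was at 0.162-fold with C1-27 at 24 h, 0.148-fold of DMSO culture 1 and 0.180-fold of culture 2. That was the second lowest ratio of the 7918 genes that passed the filter used for every fold count here. The filter kept genes above 300 bp whose mean RPKM of treated and DMSO was above 0.5. GALNT5 was chosen by its low values in this comparison and with siGSTO1, so its ranks in both follow from that choice. Its mean RPKM of 0.545 passed the filter only through its DMSO level. The count ratio of GALNT5 to both controls pooled was 0.167, with an exact 95% counting interval of 0.149 to 0.186. Between 4 h and 24 h of C1-27 its RPKM changed to 0.226-fold, with a counting interval of 0.201 to 0.254. With siGSTO1 it was at 0.297-fold, 0.271-fold of DMSO culture 1 and 0.329-fold of culture 2. The pooled count ratio there was 0.305, with an interval of 0.274 to 0.339. The RPKM ratio of GALNT5 with siGSTO1 ranked 13 from the lowest of 8138 genes. Intervals cover counting error only, and reads amplified by PCR are not independent molecules. In a bulk culture, fewer cells that transcribe a gene and less nascent RNA per cell cannot be told apart. With 1 culture per treatment, these ratios have no replicate check.

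At 4 h, GALNT5 was at 0.717-fold with 1 μM C1-27 and at 0.877-fold with 10 μM C1-14. The doses differ, so these ratios are given side by side and were not compared. The C1-27 ratio stopped just short of 0.714, the ratio of a gene 1.4-fold lower, and was 0.654-fold of DMSO culture 1 and 0.794-fold of culture 2. In the edgeR quasi-likelihood fit over 14431 genes, the log2 fold change of GALNT5 was -0.45 (SE 0.28) with C1-27 and -0.17 (SE 0.28) with C1-14, each with a Benjamini-Hochberg adjusted p of 1.0. The edgeR fit took its spread from the 2 DMSO cultures alone, with 1 residual degree of freedom, and assumed the lone treated cultures to vary like them. Nothing in the labels says that the DMSO cultures were grown independently, so that spread may be technical.

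GALNT1 and GALNT2 encode the broadly expressed enzymes that glycosylate many bare peptides. GALNT1 had an RPKM of 1.26 and 1.31 in DMSO, 1.28 with C1-14, 1.24 and 1.25 with C1-27 at 4 h and 24 h, and 0.851 with siGSTO1. Only the siGSTO1 value stood apart, at 0.663-fold of the DMSO mean, while the other 3 ratios lay between 0.961 and 0.995. The pooled count ratio with siGSTO1 was 0.66, with a counting interval of 0.620 to 0.702. GALNT2 was at 0.805 and 0.762 in DMSO, 0.703 with C1-14, 0.730 and 0.804 with C1-27 at 4 h and 24 h, and 0.690 with siGSTO1. Its ratios lay between 0.881 and 1.03, and the values with C1-14, C1-27 at 4 h and siGSTO1 were below both DMSO cultures.

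GALNT3, which protects the phosphate hormone FGF23 from cleavage, and its close relative GALNT6 were weakly transcribed. GALNT3 had an RPKM of 0.233 and 0.133 in DMSO, 0.148 with C1-14, 0.102 and 0.136 with C1-27 at 4 h and 24 h, and 0.384 with siGSTO1. The siGSTO1 value was above both DMSO cultures, at 1.65-fold of culture 1 and 2.89-fold of culture 2, from 469 counts against 253 and 252. The C1-27 value at 4 h was below both, at 0.560-fold of the DMSO mean, and edgeR gave it a log2 fold change of -0.80 (SE 0.43) with an adjusted p of 1.0. GALNT6 was at 0.558 and 0.370 in DMSO, 0.329 with C1-14, 0.376 and 0.388 with C1-27 at 4 h and 24 h, and 0.414 with siGSTO1. Every treated GALNT6 value but that of C1-14 lay between the DMSO cultures, and C1-14 was at 0.709-fold of their mean. Neither gene passed the RPKM filter in any comparison.

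GALNT11, an enzyme known for glycosylating the Notch receptor, held its level most closely. It was at 0.826 and 0.908 RPKM in DMSO, 0.860 with C1-14, 0.853 and 0.834 with C1-27 at 4 h and 24 h, and 0.857 with siGSTO1. All 4 treated values fell between the DMSO cultures.

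The members that prefer peptides already carrying GalNAc were GALNT7, GALNT10, GALNT4 and GALNT12. GALNT7 had an RPKM of 1.36 and 1.12 in DMSO, 1.01 with C1-14, 1.01 and 0.915 with C1-27 at 4 h and 24 h, and 1.25 with siGSTO1. The 3 cultures given a compound were below both DMSO cultures, at 0.813-fold, 0.811-fold and 0.737-fold of the mean in that order, whereas siGSTO1 lay between them. The C1-14 and C1-27 ratios at 4 h had edgeR log2 fold changes of -0.28 (SE 0.25) and -0.27 (SE 0.25) and an adjusted p of 1.0 each. GALNT10 was at 0.651 and 0.673 in DMSO, 0.611 with C1-14, 0.679 and 0.664 with C1-27 at 4 h and 24 h, and 0.582 with siGSTO1, ratios of 0.879 to 1.03. On the opposite strand GALNT10 overlaps FLJ38109, whose RPKM was 0.269 and 0.262 in DMSO, 0.372 with siGSTO1 and 0.232 to 0.322 in the other cultures.

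GALNT12, a close relative of GALNT4, was at 0.462 and 0.459 in DMSO, 0.449 with C1-14, 0.398 and 0.491 with C1-27 at 4 h and 24 h, and 0.443 with siGSTO1. Its DMSO values were almost the same, so that C1-27 was below both at 4 h and above both at 24 h, although by no more than 0.864-fold and 1.07-fold of their mean.

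GALNT4 had the highest ratio of the family and the least data behind it. Only 366 of the 5394 bp of the gene were counted, at chr12:89918218-89918583 (hg19, minus strand), within the interval of POC1B, a centriole gene on the same strand. The deposited counts, rounded, were 1 and 3 in DMSO, 2 with C1-14, 5 and 5 with C1-27 at 4 h and 24 h, and 8 with siGSTO1. The RPKM of GALNT4 was 0.117 and 0.201 in DMSO and 0.832 with siGSTO1, a ratio of 5.24. The pooled count ratio was 4.89, with a counting interval of 1.31 to 22.2. With C1-27 the RPKM ratios of GALNT4 were 2.14 at 4 h and 1.70 at 24 h. The pooled count ratios were 1.99 (interval 0.446 to 10.5) and 1.59 (interval 0.375 to 8.79). The intervals of GALNT4, that with siGSTO1 included, cover counting error only and are not read as tests. POC1B itself had an RPKM of 0.350 and 0.348 in DMSO and 0.600 with siGSTO1, 1.72-fold of the mean, and 0.341 to 0.420 in the other cultures. Within those 366 bp, reads of POC1B transcripts and of GALNT4 cannot be told apart. GALNT4 was below the RPKM filter in each comparison and was not tested by edgeR.

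**Figure D2:**
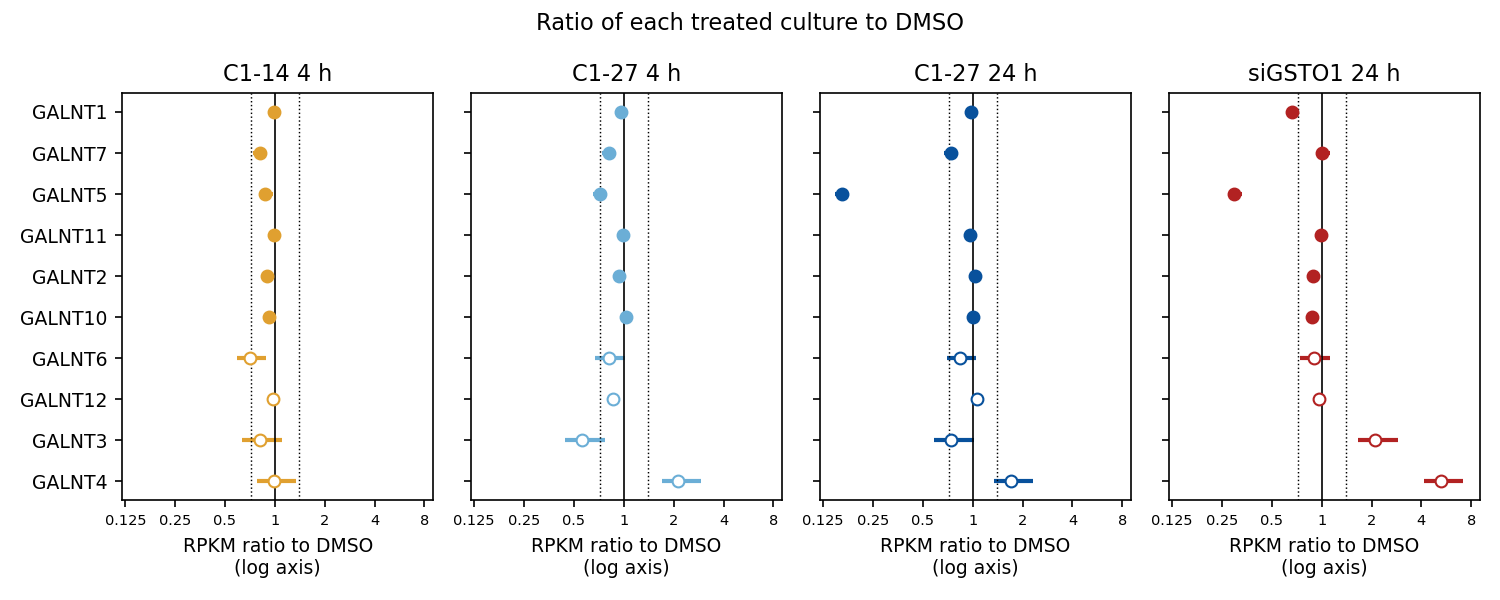
RPKM ratio of each treated culture to DMSO on a log axis, for the 10 genes in 4 treatments. Points are ratios to the mean of the 2 DMSO cultures, bars run from the ratio to one culture to the ratio to the other, filled points passed the RPKM filter, and dotted lines mark 1.4-fold. GALNT5 lies at 0.162 with C1-27 at 24 h and 0.297 with siGSTO1, and the open points far to the right are GALNT4, from 8 counts or fewer, and GALNT3.

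In each comparison 6 of the 10 members passed the RPKM filter, namely GALNT1, GALNT2, GALNT5, GALNT7, GALNT10 and GALNT11. With siGSTO1, 2 of these were 1.4-fold or more lower (GALNT1 and GALNT5) and 0 higher, where 6.48% of all genes were lower and 10.5% higher. With C1-27 at 24 h, 1 was lower (GALNT5) and 0 higher, where 3.49% of all genes were lower and 3.23% higher. These comparisons chose GALNT5, and nothing is read from their counts. At 4 h, 0 of 6 passed 1.4-fold in either direction with C1-27, where 2.22% of all genes were lower and 0.457% higher, and 0 of 6 with C1-14, where 1.01% were lower and 3.71% higher.

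The edgeR test of the 4 h comparisons covered 9 members, all but GALNT4, and called 0 of them with either compound. None had an unadjusted p under 0.05, the smallest being 0.0614 with C1-27 and 0.182 with C1-14, and DESeq2 also called 0. Over all 14431 genes edgeR called 2 genes higher with C1-27 at 4 h (0.0139%) and 0 lower (0.0%), with 104 genes at an unadjusted p under 0.05. With C1-14 it called 16 higher (0.111%) and 1 lower (0.00693%). A test that called so few genes does not show that the members were alike in these cultures. The DESeq2 calls over all genes are not given here, so nothing is read from its result for the members.

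Counted without the threshold, 5 of 10 members were lower than both DMSO cultures with siGSTO1, 6 with C1-27 at 4 h, 3 with C1-27 at 24 h and 6 with C1-14. Over the 15678 genes above 300 bp with a count in both DMSO cultures, the shares lower than both were 26.0%, 29.3%, 23.1% and 28.2% in the same order. Members higher than both numbered 2, 2, 2 and 0, where the shares of all genes were 47.0%, 19.6%, 37.1% and 24.3%. The median ratio of the 6 members that passed the filter was 0.880 with siGSTO1, 0.946 with C1-27 at 4 h, 0.967 with C1-27 at 24 h and 0.910 with C1-14, and that of all genes was 1.00, 0.993, 1.02 and 1.01.

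The level of the siGSTO1 library against DMSO depended on its scaling. As deposited, 852 genes were 1.4-fold or more higher and 527 lower, whereas TMM factors gave 561 and 907 and DESeq2 size factors gave 495 and 1098. TMM moved the median log2 ratio of all genes with siGSTO1 from -0.00072 to -0.11. GALNT7 with siGSTO1 went from 1.01-fold to 0.934-fold under TMM, and GALNT5 from 0.297-fold to 0.275-fold. With C1-27 at 24 h the split of 256 higher and 276 lower became 191 and 357 under TMM and 169 and 374 under size factors, and GALNT7 then passed 1.4-fold, at 0.712 and 0.705 in place of 0.737.

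RPKM is per length, so levels may be added over the family. The 10 genes summed to an RPKM of 7.31 and 6.78 in DMSO, 6.37 with C1-14, 6.39 and 5.90 with C1-27 at 4 h and 24 h, and 6.58 with siGSTO1. GALNT5 held 14.1% and 12.5% of that sum in DMSO, 12.9% with C1-14, 10.5% and 2.58% with C1-27 at 4 h and 24 h, and 4.23% with siGSTO1. It thus went from the third highest of the family in DMSO to the second lowest with C1-27 at 24 h and the lowest with siGSTO1. Without GALNT5 the sum was 6.28 and 5.93 in DMSO, 5.54 with C1-14, 5.72 and 5.75 with C1-27 and 6.31 with siGSTO1. Of the siGSTO1 sum, 12.6% came from the 8 counts of GALNT4.

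**Figure D3:**
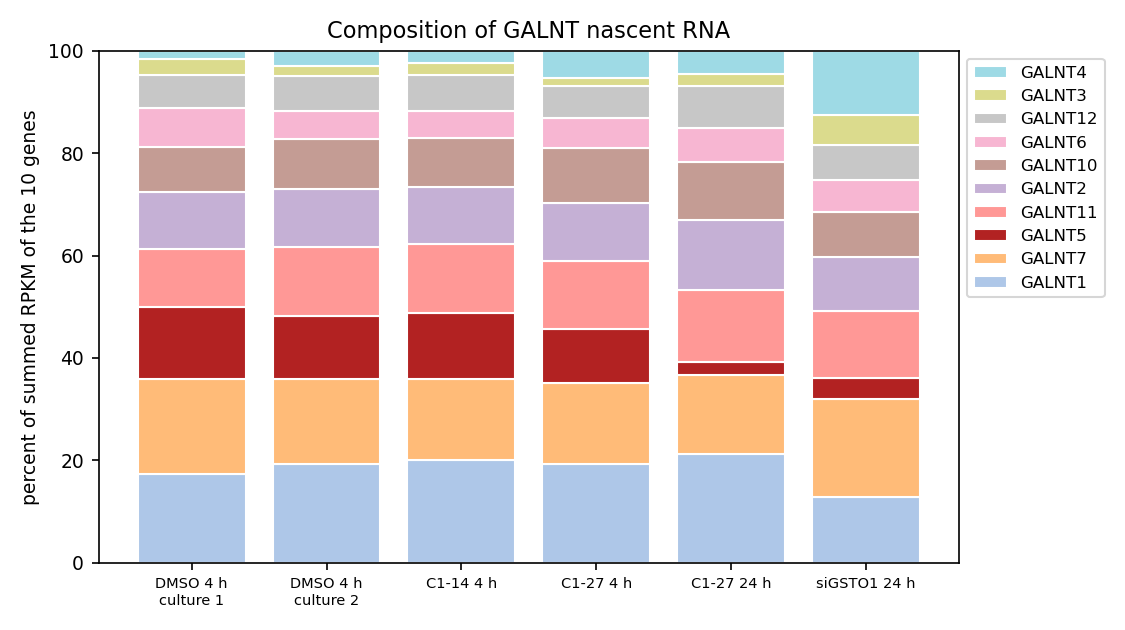
Share of each of the 10 genes in their summed RPKM, in percent, as stacked bars that fill the axis for each of 6 cultures. The GALNT5 share (dark red) is 14.1% and 12.5% in DMSO and 2.58% with C1-27 at 24 h, and the GALNT4 share at the top is 12.6% with siGSTO1.

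Of the genes around GALNT5 on chromosome 2 with more than a few counts, none had ratios as low with C1-27 at 24 h or siGSTO1. GALNT5 was chosen by its low values in these comparisons, so its contrast with the neighbours is a description only. GPD2, the mitochondrial glycerol phosphate dehydrogenase gene 671425 bp away towards lower coordinates, had an RPKM of 1.37 and 1.54 in DMSO, 1.36 with C1-27 at 24 h and 1.22 with siGSTO1. NR4A2, an orphan nuclear receptor gene 925053 bp away, was at 0.979 and 0.312 in DMSO, a wide control spread, and at 0.296 with C1-27 at 24 h and 0.680 with siGSTO1. ERMN, 7212 bp away towards higher coordinates, and CYTIP, 103218 bp away, had at most 4 counts in any library. Around GALNT4, the phosphatase gene DUSP6 and the calcium pump gene ATP2B1 were at ratios of 0.815 to 1.20 and 0.904 to 0.978 over the 4 treatments, and LOC728084 and LOC338758 had at most 11 counts in any library.

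The genes with the pattern nearest to GALNT5 were ranked by the root-mean-square difference of centred log2(RPKM + 0.1) over the 6 libraries, among 7913 genes with a mean RPKM above 0.5. The nearest 8 were NT5E (0.331), ALDH1A3 (0.335), MYC (0.355), PDLIM2 (0.423), DKK1 (0.437), ADM (0.441), COL12A1 (0.443) and GPRC5A (0.458). NT5E, which encodes the ecto-5′-nucleotidase CD73, had an RPKM of 2.01 and 2.04 in DMSO, 1.81 with C1-14, 1.73 and 0.868 with C1-27 at 4 h and 24 h, and 0.736 with siGSTO1. ALDH1A3, a retinal dehydrogenase gene, was at 7.13 and 7.19 in DMSO, 8.09 with C1-14, 6.29 and 3.26 with C1-27 and 2.59 with siGSTO1. The transcription factor gene MYC was at 22.8 and 20.2 in DMSO, 19.0 with C1-14, 18.3 and 10.1 with C1-27 and 10.96 with siGSTO1. In all 8 the ratio with C1-27 at 24 h lay between 0.429 and 0.571, so none was as low as GALNT5 at 0.162. With siGSTO1 their ratios were 0.339 to 0.510, against 0.297 for GALNT5. The distance was computed on values that chose GALNT5, and likeness over 6 libraries that share controls is a description.

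**Figure D4:**
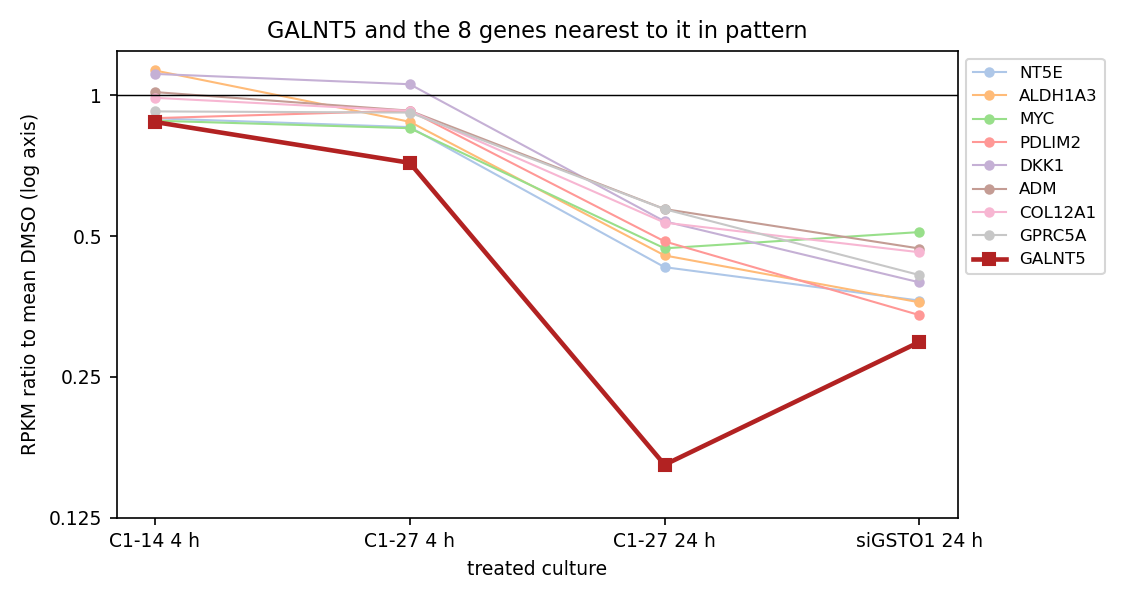
RPKM ratio to the DMSO mean on a log axis for GALNT5 (squares) and the 8 genes nearest to it in pattern, in 4 treated cultures. Lines join the values of 1 gene and imply no order of treatments. All 9 genes are lower with C1-27 at 24 h and siGSTO1, with GALNT5 the lowest in both.

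For the rest of the pathway a list of 58 gene names was used, of which 52 were in the files and 37 had enough counts for edgeR. With siGSTO1, edgeR called 4 of the 37 higher and 0 lower, where it called 3.0% of all genes higher and 1.16% lower. At an unadjusted p under 0.05 edgeR had 6 of the 37 higher and 0 lower, where 2061 of all genes (14.3%) were under it in either direction, and DESeq2 called 0 of the list. The DESeq2 calls over all genes are not given, so nothing is read from its results for the list in any comparison. The median log2 fold change of the 37 was 0.38 with siGSTO1, against 0.02 over all genes tested. All genes tested were not matched to the list in level, and weakly transcribed genes, some of them on the list, were higher in this library, as given below. With C1-27 at 4 h, C1-27 at 24 h and C1-14 the medians were -0.05, 0.03 and -0.09, and edgeR called 0 of the 37, as did DESeq2. At an unadjusted p under 0.05 edgeR had 1 higher and 1 lower with C1-27 at 24 h and 0 with the 4 h treatments. At 24 h of C1-27, edgeR called 0.159% of all genes higher and 0.118% lower, with 539 at an unadjusted p under 0.05.

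The 4 called genes were all weakly transcribed. GALNT13, a relative of GALNT1 known from neurons, had an RPKM of 0.0159 and 0.0315 in DMSO and 0.0563 with siGSTO1, and edgeR gave a log2 fold change of 1.12 (SE 0.31, adjusted p = 0.0148). GALNTL1, now named GALNT16, had 8 and 20 counts in DMSO and 63 with siGSTO1, a log2 fold change of 2.37 (SE 0.68, edgeR adjusted p = 0.0182). GCNT3, which makes core 2 and core 4 branches, had 8 and 5 counts in DMSO and 35 with siGSTO1, a log2 fold change of 2.50 (SE 0.81, edgeR adjusted p = 0.0469). ST6GALNAC3, which adds sialic acid to GalNAc, had an RPKM of 0.0333 and 0.0320 in DMSO and 0.0732 with siGSTO1, a log2 fold change of 1.05 (SE 0.30, edgeR adjusted p = 0.0185). In each of the 4 the siGSTO1 value was above both DMSO values. Weakly transcribed genes were higher in this library in general. Over 2020 tested genes with a mean RPKM under 0.06, a limit set after the values were seen so as to hold the 4, the median siGSTO1 ratio was 1.61 and 58.6% were 1.4-fold or more higher, against 0.956 and 26.1% for DMSO culture 2 over culture 1. Of these 2020 genes edgeR called 8.47% higher with siGSTO1. The part of that shift in the 4 calls and in the median of the list was not tested.

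The more strongly transcribed genes of the list were called by edgeR in no comparison. Among the other GalNAc-transferases, GALNTL4 (now GALNT18) and GALNT14 had a mean RPKM in DMSO of 0.977 and 0.521, and their siGSTO1 ratios were 0.795 each. Their ratios with C1-27 at 24 h were 0.655 and 0.780. Among core and extension enzymes, the galactosyltransferase gene B4GALT5 was at a mean of 5.19 and C1GALT1 at 1.30, with ratios of 0.837 and 1.27 with siGSTO1 and 1.03 and 1.16 with C1-27 at 24 h. FUT1 and ST6GALNAC4, which add fucose and sialic acid, were at 0.763 and 0.604, with siGSTO1 ratios of 1.48 and 0.938. GNPNAT1 and UAP1, which act in UDP-sugar synthesis, were at 2.86 and 2.07, with siGSTO1 ratios of 0.763 and 0.782. UAP1 was at 1.72 and 2.41 in the DMSO cultures, and its siGSTO1 ratio was 0.938 to culture 1 and 0.670 to culture 2.

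The acceptor mucins found in the files were hardly transcribed. Of 12 mucin genes 10 were in the files and 2 were tested, MUC12 and MUC20. MUC3A and MUC5AC were not found under these names, so nothing is said of them. MUC20 was highest, with a mean RPKM in DMSO of 0.0608, and MUC1 was at 0.0139.

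**Figure D5:**
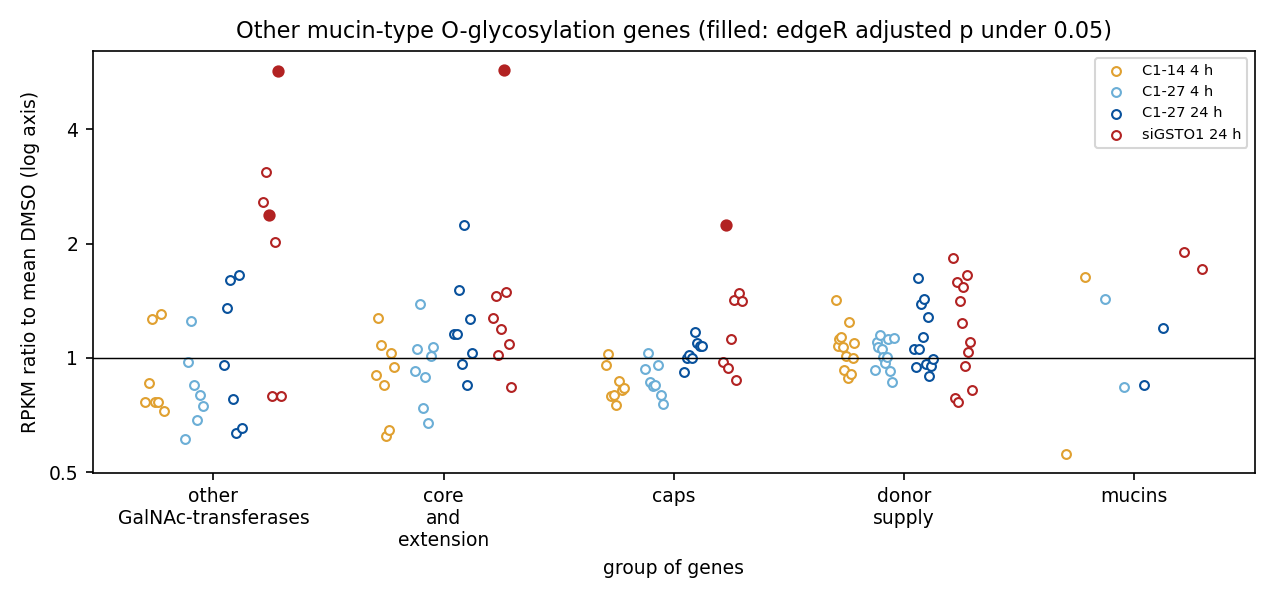
RPKM ratio to the DMSO mean on a log axis for the 37 tested genes of the list, in 5 groups by role and coloured by treatment. Filled points passed an edgeR adjusted p under 0.05. The 4 filled points are all siGSTO1, with GALNTL1 and GCNT3 above 5 and GALNT13 and ST6GALNAC3 above 2.

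KRT8, an epithelial keratin gene, was lower with C1-27 at 24 h (0.506-fold of the DMSO mean, edgeR adjusted p = 0.0441), beside the low GALNT5 value in the same culture, with RPKM values of 9.60 and 5.81 in DMSO and 3.90 at 24 h. KRT18, its keratin partner, was at 0.599-fold in that culture and was not called (edgeR adjusted p = 0.792), and EPCAM, CDH1 and CDX2 were at 0.991-fold, 1.01-fold and 1.46-fold. With siGSTO1 the ratios of KRT8 and KRT18 were 0.732 and 0.605, and those of EPCAM, CDH1 and CDX2 were 1.04, 1.54 and 1.43, with none of the 5 called. The summed RPKM of the 6 epithelial markers, VIL1 included, was 22.2 and 14.3 in DMSO, 26.9 with C1-14, 13.2 and 11.9 with C1-27 at 4 h and 24 h, and 14.1 with siGSTO1. The sums with C1-27 and siGSTO1 were below both DMSO cultures, and most of each sum was KRT8, KRT18 and EPCAM. The part of epithelial state in the GALNT5 values was not tested.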

How the data were processed

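Bru-seq of 6 HCT116 libraries was analysed. Members and gene lists were chosen with earlier results of these data known. The submitters' processing notes name CASAVA 1.8.2, Bowtie 0.12.8, TopHat 1.4.1, bedtools 2.16.2 and hg19. The annotation release and the counting settings are not given in the sources used here. The authors deposited expected counts for each gene on each strand, exons and introns together, of which 28.9 to 40.8% of sense values per library were not whole. The deposited signal, which is the count divided by the counted length, was used only to recover the reads behind RPKM, 23388424 to 46017052 per library. The deposited RPKM is the count divided by the counted length, which for GALNT4 is 366 of 5394 bp, and by mapped reads.

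Each ratio set the treated RPKM against the average of the DMSO pair with no pseudocount. The filter kept genes above 300 bp with a mean RPKM above 0.5, and 1.4-fold was the threshold, both after the methods of the study. The gene counts and fold changes that the study reports nevertheless differ from those here. Its list of the top genes raised by siGSTO1 holds GALNT4, which the filter as applied here left out. Rounded counts of 14431 genes (at least 10 counts in at least 2 libraries) were fitted in edgeR 4.0.16 (R 4.3.3) in 5 groups with TMM and the quasi-likelihood test, adjusted by Benjamini-Hochberg over all genes at 0.05, with a common dispersion of 0.0381. DESeq2 1.42.0 was the alternative. In simulated counts for siGSTO1 against DMSO, edgeR found 171 of 200 changed genes, with 11 false calls, among 14431 genes. Each changed gene was given the same large fold, higher or lower, and all libraries were drawn with the same spread. The real DMSO cultures were skewed against each other and most ratios here were smaller, so this recovery does not carry over to the real calls. Counting intervals are exact 95% Clopper-Pearson (Python 3.11.15, scipy 1.17.1). Those against DMSO belong to the ratio of counts pooled over both DMSO cultures, scaled to the reads of each library. Named genes were all members, listed pathway genes called by edgeR or the 2 highest of each group, the 8 genes nearest to GALNT5, and the neighbours of GALNT5 and GALNT4. Sense counts per library far exceeded antisense counts (583700 to 1184191), and the labels apply strand marking to certain samples without naming them. Antisense rows served only the values given at the end. Gene intervals are hg19, and promoters are RefSeq GRCh38.p14.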

Additional observations from a re-analysis of the deposited data

Results flagged for a closer look

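GALNT12 lay on opposite sides of the DMSO cultures at the 2 times of C1-27, below both at 4 h (0.864-fold) and above both at 24 h (1.07-fold). The difference was not tested, and each time is 1 culture. Such opposite sides were seen in 1 of the 10 members and in 13.3% of 15678 genes with a count in both DMSO cultures.

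Antisense rows were outside the comparisons, and 4 of the 18 treated values of members with at least 10 counts were 1.4-fold or more above the higher DMSO culture, as were 12.4% of 26041 such values over all antisense rows. With siGSTO1 2 of 4 member values passed, against 27.8% of all rows, with C1-27 at 24 h 1 of 5 against 11.7%, with C1-27 at 4 h 1 of 5 against 5.67%, and with C1-14 0 of 4 against 3.87%. The antisense RPKM of GALNT7 was 0.0272 and 0.0265 in DMSO, 0.0430 with siGSTO1 and 0.0468 with C1-27 at 24 h, from 99, 168, 175 and 334 counts in that order. The antisense RPKM of GALNT10 was 0.00558 and 0.00554 in DMSO and 0.0109 with siGSTO1, and that of GALNT1 was 0.00149 and 0.00385 in DMSO and 0.00722 with C1-27 at 4 h, from 2, 9 and 16 counts.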

How the results depend on the processing

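The ratio of GALNT5 moved by more than the DMSO spread only when a pseudocount of 0.1 RPKM was added, to 0.365 with siGSTO1 and 0.243 with C1-27 at 24 h. No ratio of a member that passed 1.4-fold turned direction under any alternative run. Counts of members past 1.4-fold were small and moved with the settings. Without the RPKM filter, 2 were higher with siGSTO1 (GALNT3 and GALNT4), 1 higher and 1 lower with C1-27 at 4 h (GALNT4, GALNT3), 1 higher with C1-27 at 24 h (GALNT4) and 1 lower with C1-14 (GALNT6). With a mean RPKM above 1, the lower members fell from 2 to 1 with siGSTO1 and from 1 to 0 with C1-27 at 24 h, since GALNT5 was then left out. Leaving out each DMSO culture gave 0 to 1 higher with siGSTO1, 0 to 1 lower with C1-27 at 4 h (1 without culture 2, GALNT5 at 0.654-fold) and 0 to 2 lower with C1-27 at 24 h (0 without culture 1, where the mean RPKM of GALNT5 was just below the filter, and 2 without culture 2). TMM and size factors gave 2 lower with C1-27 at 24 h in place of 1. The 4 pathway genes called with siGSTO1 became 0 with DESeq2, whose calls over all genes are not given, and the cause was not tested. With a pseudocount of 0.5, 6 of the 8 genes nearest to GALNT5 were shared, without DKK1 and GPRC5A. Without either DMSO culture edgeR had no residual degree of freedom, so no test was run. No paired analysis was possible because the groups share fewer than 2 replicate numbers.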

Other observations

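Antisense counts differed between the members. Over all rows, DMSO culture 2 had 965380 antisense beside 32906297 sense counts, and C1-14 had 1128063 beside 27364324. The shares of the members are a description and are not read as a trait of the family. Summed over the 6 libraries, GALNT11 had 1791 antisense counts, 10.3% of its sense counts, GALNT6 had 267 (8.19%) and GALNT7 had 1089 (3.10%). GALNT5 had 19 (0.279%), with at most 6 in any library, and GALNT3 and GALNT4 had 0. The antisense RPKM of GALNT11 was 0.0925 and 0.0791 in DMSO and 0.0701 to 0.101 in the treated cultures.

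GFPT1, which encodes the entry enzyme of UDP-GlcNAc synthesis and was named here after its values were seen, had an RPKM of 0.658 and 0.815 in DMSO, 1.17 with siGSTO1 and 1.20 with C1-27 at 24 h. Its ratios were 1.58 and 1.63, above both DMSO cultures each, and edgeR called it in neither (adjusted p = 0.247 and 0.68).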
